A study of Mus musculus with 4 samples.

Results

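The 10 genes described here, Mcm2, Mcm3, Mcm4, Mcm5, Mcm6, Mcm7, Mcm10, Cdc45, Cdc6 and Cdt1, encode the MCM helicase and the factors that load and switch it on at replication origins. They were picked by symbol among the 19465 genes of the spatial transcriptomes, and all 10 were found. One section of the mammary tumour and one of the lung was profiled from each of 2 BALB/c mice, called A and B in the order of their numbers, so each tissue has n = 2 sections from the same animals. Every mouse received 100000 cells of 4T1, a mouse mammary carcinoma line that seeds the lung, into the mammary fat pad at 8 weeks of age, and tissues were taken 28 days later. Both tissues of both mice thus carry the same single line, and no lung of an uninjected mouse is among the samples.

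Before DNA can be copied, each origin has to be licensed. The origin recognition complex, Cdc6 and Cdt1 together place rings of the MCM2-7 proteins around DNA in late mitosis and G1, and geminin, encoded by Gmnn, blocks Cdt1 afterwards. At the start of S phase Cdc45 and the GINS proteins join the ring to form the working helicase, with the help of Mcm10. Most of these genes are textbook targets of the E2F transcription factors, and MCM proteins are used in pathology as markers of cells that are in cycle.

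In the assay, pairs of probes bound to each transcript in a fixed section are captured on barcoded spots and counted as unique molecular identifiers (UMIs). A spot can hold several cells of different types, so fewer cycling cells in a spot and less RNA per cell cannot be told apart. A minimum of 200 genes left 9339 of 9445 spots. They hold 13532158 and 10890154 UMIs in the tumours of mice A and B, and 11122812 and 30240176 UMIs in their lungs, with median spots of 1820 to 9174.5 UMIs. Levels are the UMIs of a gene scaled to a total of 1000000 UMIs in its section or class of spots (CPM), and intervals in parentheses are exact 95% Poisson intervals, which cover counting error only. The labels fitted the tissues, since 8 alveolar epithelium genes such as Sftpc summed to 13139 and 7456 CPM in the lungs against 23.2 and 62.3 CPM in the tumours. The tumour section of mouse B stood apart from the other tumour in mature neutrophil genes (11054 against 2509 CPM), macrophage genes (361 against 1550.1 CPM) and background. A mean of 7.86 CPM fell on each of 1178 olfactory and vomeronasal receptor genes there, against 0.737 CPM in the other tumour and 0.205 and 0.155 CPM in the lungs, and this mean served as a measure of background signal.

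The MCM2-7 ring is built from 6 related subunits. Mcm2 (ENSMUSG00000002870) lies on the minus strand at chr6:88883474-88898780 of GRCm38, Mcm3 (ENSMUSG00000041859) on the minus strand at chr1:20802968-20820312, and Mcm4 (ENSMUSG00000022673) on the minus strand at chr16:15623897-15637400. Mcm5 (ENSMUSG00000005410) lies on the plus strand at chr8:75109569-75128439, Mcm6 (ENSMUSG00000026355) on the minus strand at chr1:128331590-128359664, and Mcm7 (ENSMUSG00000029730) on the minus strand at chr5:138164583-138172422. The loaders are Cdc6 (ENSMUSG00000017499; plus strand, chr11:98907801-98923940) and Cdt1 (ENSMUSG00000006585; plus strand, chr8:122568015-122573554). The factors that turn the loaded ring into a helicase are Cdc45 (ENSMUSG00000000028; minus strand, chr16:18780447-18811987) and Mcm10 (ENSMUSG00000026669; minus strand, chr2:4989714-5012791).

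The members varied together across the lung sections, so the 250 bases upstream of their RefSeq start sites were searched for the core words of E2F sites, TTTCCCGC, TTTGGCGC, TTTCGCGC and TTTGCCGC, on both strands. RefSeq promoter windows of GRCm38.p6 were matched by symbol for 9 of the 10 members (10 windows, since Mcm7 has more than 1 start; Mcm4 was not matched). An E2F word stood in 4 of these 10 windows (40%), belonging to Mcm5, Mcm6, Mcm7 and Cdc6, against 1.86% of all 32851 windows and 1 of 19 windows of the mitotic genes used further on. The stretches that hold them are shown 5′ to 3′ on the strand of the gene, with the words or their reverse complements in capitals, and touching or overlapping words merged. The stretches of Mcm6 and Mcm5 lie outside the gene spans given above, whereas the RefSeq starts of Mcm7 and Cdc6 lie inside these spans, so their stretches fall within the annotated gene.
Mcm6, chr1:128359741-128359820, minus strand: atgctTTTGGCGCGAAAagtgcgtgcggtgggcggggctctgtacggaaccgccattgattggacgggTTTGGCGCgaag
Mcm5, chr8:75109322-75109401, plus strand: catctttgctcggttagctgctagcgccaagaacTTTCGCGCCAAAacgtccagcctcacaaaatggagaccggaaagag
Mcm7, chr5:138172030-138172059, minus strand: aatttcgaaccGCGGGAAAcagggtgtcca
Cdc6, chr11:98908002-98908031, plus strand: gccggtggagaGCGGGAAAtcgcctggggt
Mcm6 holds 3 words, of which a pair overlaps on opposite strands, Mcm5 holds 2 such overlapping words, and Mcm7 and Cdc6 hold 1 each. The CCAAT word, also read on both strands, was found in 8 of the 10 windows (33.8% of all windows, 17 of 19 mitotic windows), and the TTTGAA word of cell cycle homology elements in 2 of 10 (16% of all windows, 8 of 19 mitotic windows). A match describes these letters only and is not a measured binding site.

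Summed over the 10 members, both primary tumours stood at nearly the same level, while the lungs lay on either side of them. The tumours gave 620.1 CPM (606.9 to 633.5) in mouse A and 625 CPM (609.9 to 639.7) in mouse B. The lung of mouse A gave 237 CPM (228 to 246) and the lung of mouse B gave 895 CPM (884 to 906). The lungs thus differed 3.78-fold from each other and the tumours 1.01-fold. The lungs also differed in makeup. The carcinoma markers listed further on stood at 118 CPM in the lung of mouse A and 1231 CPM in that of mouse B. Mature neutrophil genes went the other way, at 79517 and 32272 CPM. The part of makeup in the difference between the lungs was not tested.

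**Figure D1:**
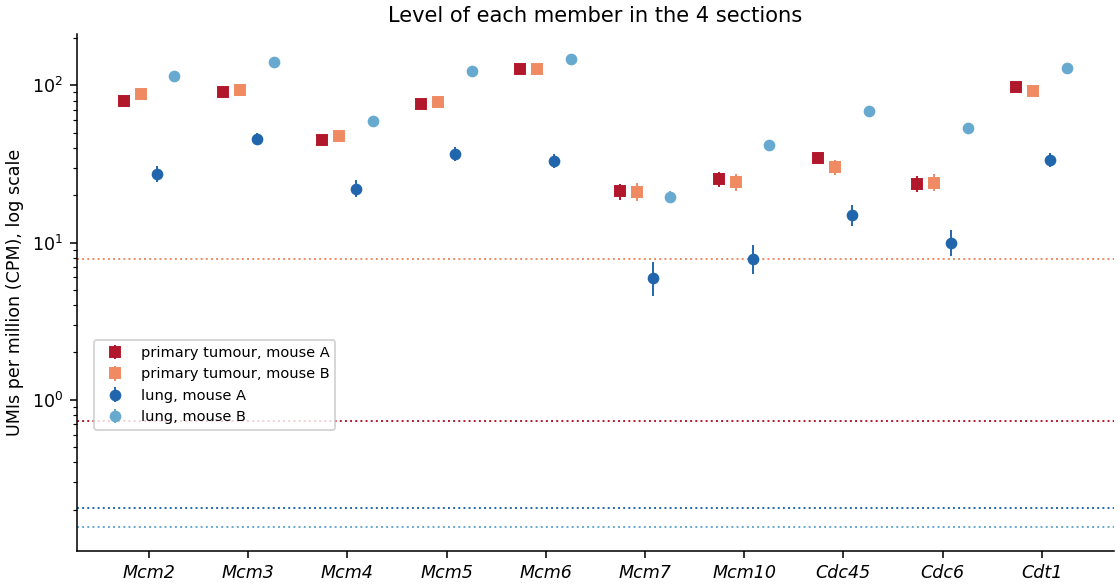
Level of each of the 10 genes in the 4 sections, in CPM on a log axis. Squares are primary tumours, circles are lungs, error bars are 95% Poisson intervals of the count, and dotted lines give the mean level of a receptor gene in the section of the same colour. All 10 genes are lowest in the lung of mouse A, and 9 of them, all but Mcm7, are highest in the lung of mouse B.

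Among the ring subunits, Mcm2 stood at 79.5 and 88.2 CPM in the tumours of mice A and B and at 27.3 and 115 CPM in their lungs. Mcm3 stood at 90.6 and 93 CPM in the tumours and 45.7 and 140 CPM in the lungs. Mcm4 was at 44.6 and 47.4 CPM in the tumours and 22 and 59.3 CPM in the lungs. In these 3 genes the tumours lay close together and between the lungs, whose intervals they did not touch. Mcm5 had 76.4 and 78.3 CPM in the tumours and 36.7 and 123 CPM in the lungs. Mcm6 had 128 and 126 CPM in the tumours and 32.9 and 147 CPM in the lungs. The low lung stood farthest below its tumour in Mcm6, at 0.258 of the tumour level. Mcm7 had 21.1 and 21 CPM in the tumours and 5.93 and 19.5 CPM in the lungs, and was the one member whose lung values both lay below both tumour values. In mouse B its intervals overlapped (18 to 21.2 CPM in the lung and 18.4 to 23.9 CPM in the tumour), and less the background of the section its lung stood above its tumour there, at 19.4 against 13.2 CPM.

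Of the loaders, Cdt1 had 97 and 92.1 CPM in the tumours and 33.6 and 128 CPM in the lungs. Cdc6 had 23.6 and 24.1 CPM in the tumours and 9.98 and 53.8 CPM in the lungs. Cdc6 varied most between the lungs, 5.39-fold. Of the activators, Cdc45 had 34.4 and 30.2 CPM in the tumours and 14.9 and 68.2 CPM in the lungs. Mcm10, which varied 5.31-fold between the lungs, had 25.3 and 24.2 CPM in the tumours and 7.82 and 41.6 CPM in the lungs.

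The order of the sections was therefore the same for 9 of the 10 members, from the lung of mouse A through the tumours to the lung of mouse B. The intervals of the tumours overlapped in all 10 members, so their order among themselves is not resolved. In mouse A all 10 members were lower in the lung than in the tumour, at 0.258 to 0.504 of the tumour level, and in mouse B 9 of 10 were higher in the lung, at 0.929 to 2.26 times the tumour level. The largest lung to tumour ratios in mouse B were those of Cdc45 (2.26), Cdc6 (2.23) and Mcm10 (1.71). Less the background of the section, the sums were 613 and 546 CPM in the tumours and 235 and 893 CPM in the lungs. The background weighed most on the low members of the tumour of mouse B, where 49 of the 1178 receptor genes had a level as high as Mcm7, 38 as high as Cdc6 and none as high as Mcm6.

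In edgeR's quasi-likelihood test of lung against primary tumour, adjusted over all genes by Benjamini-Hochberg, 1139 of 15267 genes (7.46%) passed an adjusted p of 0.05, and no member did. The log2 fold changes of the members ran from -0.49 (Mcm7) to 0.63 (Cdc6), with adjusted p between 0.592 and 0.997 in edgeR, none had an unadjusted p under 0.05 beside 23.2% of all genes, and DESeq2 also called none. The members' median was 0.14 beside a median of 0.00 over all genes tested. The direction depended on which lung was left out. Without that of mouse A the median of the members was 0.86 and 2 were called higher in lung beside 4.03% of all genes, and without the lung of mouse B the median was -0.74 and none was called. With 1 lung left, its spread is assumed to be that of the tumours. The groups did not overlap for Mcm7 alone, lower in lung, a pattern that 37.8% of all genes showed and that Mcm7 lost once the background was subtracted. Of 71 tested genes of a wider replication list (origin recognition, licensing, GINS, firing factors, polymerases, clamp loading, fork protection, nucleotide supply and the E2F family), 2 were called, both higher in lung. They were E2f2, an E2F family activator, at 23.7 and 10.9 CPM in the lungs against 2.29 and 1.65 CPM in the tumours, and Dna2, a nuclease of Okazaki fragment processing, at 40.5 and 42.1 CPM against 15.5 and 10.7 CPM. Unlike the members, both were high in the lung of mouse A too.

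At least 1 UMI of a member was found in 65.1% (63.2% to 67%, exact Clopper-Pearson) and 66.1% (64.2% to 68%) of tumour spots and in 67.6% (65.3% to 69.8%) and 90.9% (89.7% to 91.9%) of lung spots of mice A and B. These shares follow depth, and after each spot was thinned to 1000 UMIs they were 42.1%, 40.9%, 19.6% and 46.7%, in the order of the summed CPM except that the tumours change places. Thinning left out 886 of the 2490 spots of the tumour of mouse A, 56 of the other tumour, and 10 and 5 of the lungs. A receptor gene had a UMI in a mean of 0.131%, 1.83%, 0.0246% and 0.0272% of thinned spots. Mcm6, found in 11.7%, 9.2%, 3.38% and 11.1% of thinned spots, stood well clear of that mean in every section. Mcm7, found in 2.37%, 2.2%, 0.652% and 1.84%, had an interval that takes in that mean in the tumour of mouse B (1.64% to 2.89% beside 1.83%), although over all spots there it was found in 8.05% (6.99% to 9.22%) beside a receptor mean of 3.5%.

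The question of where within the lung these genes were used was put to spots ranked by the share of their UMIs on 9 markers of 4T1 tissue (Csf3, Mmp3, Plau, Hmga2, Inhba, Mmp10, Mmp13, Fst and Ereg), none of them a member, some of which stromal and myeloid cells express as well. The top 10% of spots, here called marker-high, were set against the lower 50%, called marker-low. Marker-high spots numbered 170 in mouse A and 278 in mouse B, and marker-low spots, which include all spots tied at a share of 0, numbered 1055 and 1390. The cut is a point in a range, and 50 and 199 spots lay within 10% of it.

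All 10 members stood higher in marker-high lung spots of both mice. Their sum was 551 against 180.4 CPM in mouse A, a ratio of 3.05, and 1333 against 408 CPM in mouse B, a ratio of 3.27. Mcm6 went from 22.6 to 92.2 CPM in mouse A and from 59.1 to 215 CPM in mouse B. Mcm2 went from 19.1 to 68.1 CPM and from 55 to 177 CPM. Cdt1 went from 26.5 to 67.1 CPM and from 56.2 to 189 CPM. Cdc6 went from 7.85 to 20 CPM and from 21.6 to 85.3 CPM, and Cdc45 from 12.3 to 28.1 CPM and from 32.6 to 107 CPM. The marker-high spots of the low lung reached levels above the marker-low spots of the other lung in these genes except Cdc6 and Cdc45, where they stayed below.

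**Figure D2:**
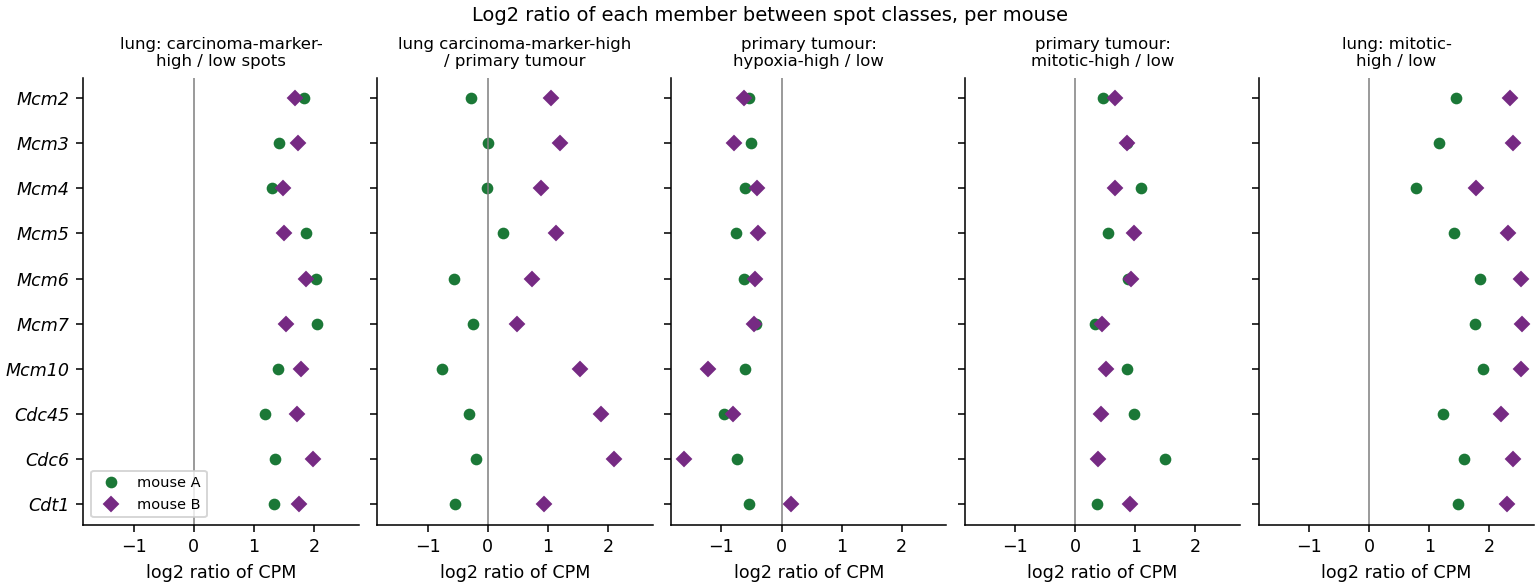
Log2 ratio of the CPM of each gene between classes of spots, 1 panel per comparison, with a circle for mouse A and a diamond for mouse B, and a vertical line at no difference. Both mice lie to the right of the line for all 10 genes in marker-high against marker-low lung spots. In marker-high lung spots against primary tumour both lie to its right for Mcm5 and Mcm3, the latter almost on the line in mouse A. The other genes have mouse A to its left and mouse B to its right there. Both mice lie to its left for 9 genes in hypoxia-high against low tumour spots.

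With the mouse as a block, the log2 fold changes were 1.27 (Mcm4) to 1.81 (Mcm6), with a median of 1.53 beside 0.01 over all 12880 genes. No gene passed an adjusted p of 0.05 in edgeR (0%), while 3444 (26.7%) had an unadjusted p under 0.05 and DESeq2 called 779. The members' adjusted p was 0.12 to 0.149 in edgeR, and 10 of 10 had an unadjusted p under 0.05 in the higher direction, as had 15.9% of all genes. They were higher in both mice, as were 46% of all genes, and the values of the classes did not overlap for 7 of them, as for 32.2% of all genes. DESeq2 called 5 members higher beside 2.74% of all genes and edgeR without a filter on low counts all 10 beside 7.63%. With classes drawn after thinning to 1000 UMIs none was called and the median fell to 0.85. The sums were then 396 against 219 CPM in mouse A and 1272 against 603 CPM in mouse B. In mouse A the thinned marker-low class was wider. It held 1517 of 1687 spots, all but the 170 marker-high ones, against 1055 spots before thinning. Of 70 genes of the wider replication list, none was called, 44 had an unadjusted p under 0.05 in the higher direction and 2 in the lower, and the median was 1.15.

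Other markers moved with this difference. The 8 genes of mature neutrophils (S100a8, S100a9 and others) summed to 53430 CPM in marker-high and 84576 CPM in marker-low spots of mouse A, and to 5207 and 61412 CPM in mouse B. The 8 alveolar genes stood at 11453 against 13491 CPM and at 2379 against 11646 CPM, and the 6 macrophage genes at 616 against 329 CPM and 1085 against 552 CPM. The 20 mitotic genes, such as Mki67 and Top2a, stood at 1475 against 414 CPM and at 3213 against 1065 CPM. Spots of the marker-high class were shallower in mouse A (medians of 4868.5 against 6121 UMIs) and deeper in mouse B (16467 against 7562.5 UMIs). The part of these in the members' difference was not tested.

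**Figure D3:**
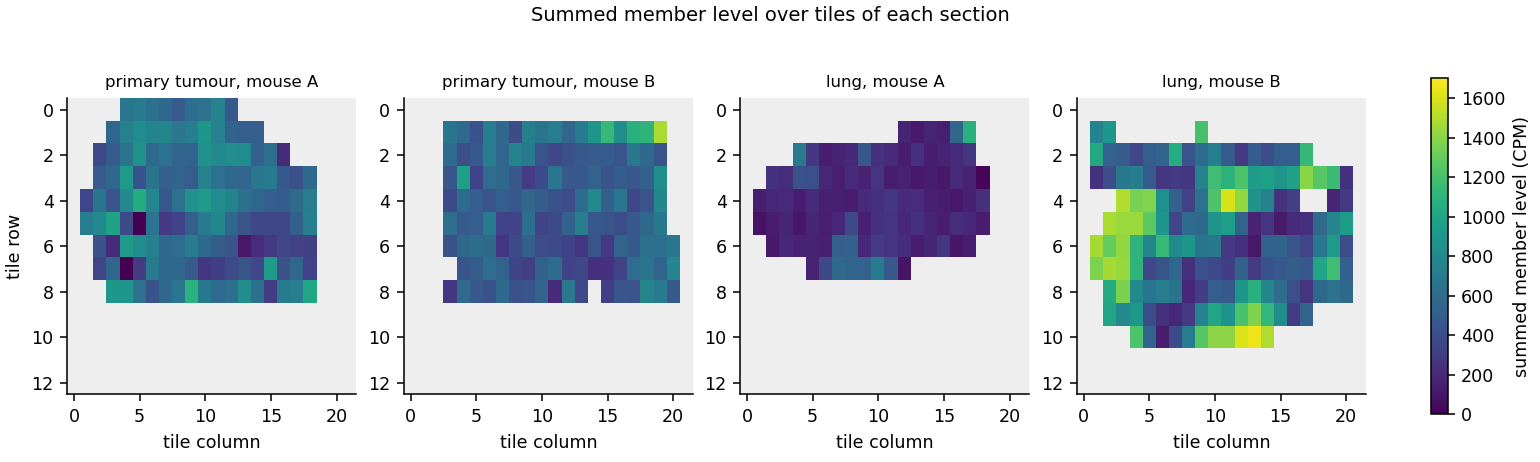
Summed level of the 10 genes, in CPM, over square tiles of 6 by 6 array steps in each section, with 1 colour scale for the 4 sections and grey where fewer than 9 spots were kept. Tiles of the lung of mouse B reach 1660 CPM and lie in patches, the lung of mouse A has a median of 188 CPM with most tiles below the medians of the tumours, 580.4 and 504 CPM.

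Marker-high lung spots were then set against the 50% of primary tumour spots with the higher share of the same markers. The sum of the members was 551 against 648 CPM in mouse A, a ratio of 0.85, and 1333 against 618 CPM in mouse B, a ratio of 2.16. With classes drawn after thinning, the sums were 396 against 645 CPM in mouse A and 1272 against 623 CPM in mouse B, so in mouse A the distance below the tumour depended on how the spots were chosen. Marker-high lung spots were not equal to tumour spots in makeup, since the markers that chose them stood at 682 against 5496 CPM in mouse A and 2721 against 6244 CPM in mouse B. The alveolar genes stood at 11453 against 26.5 CPM and 2379 against 45.1 CPM, and the neutrophil genes at 53430 against 2515 CPM and 5207 against 9164 CPM. Median depth was 4868.5 against 4639 UMIs in mouse A and 16467 against 2495 UMIs in mouse B, and the part of makeup and depth in the ratios was not tested. Cdc6 gave 20 against 23 CPM in mouse A and 85.3 against 20 CPM in mouse B, and Cdc45 gave 28.1 against 34.8 CPM and 107 against 28.8 CPM. Mcm5, at 98.2 against 82.7 CPM and 171 against 77.8 CPM, and Mcm3, at 99.2 against 98.7 CPM and 208 against 90 CPM, were the 2 members higher in lung in both mice, beside 26.1% of all genes. In mouse A Mcm3 had a log2 ratio of only 0.007, on 99 lung UMIs, so its direction there is not resolved. Less the background, Mcm4 was above 0 in both mice too, at 0.01 and 1.04. In edgeR 2 of 13466 genes were called (0.0149%) and no member, with log2 fold changes of 0.12 (Mcm7) to 1.28 (Cdc6), adjusted p of 0.494 to 0.933 and none at an unadjusted p under 0.05, beside 11.4% of all genes. DESeq2 called none of the members. Without the marker-high spots of mouse A, 6 members were called higher in lung beside 3.03% of all genes, and the lone lung sum is then assumed to vary as the tumours do.

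Within the primary tumours, spots were ranked by the share of UMIs on 12 hypoxia genes such as Car9, Slc2a1 and Vegfa, and the highest 25% were set against the lowest 25%. The summed members were lower in hypoxia-high spots, at 518 against 793 CPM in mouse A and at 550.2 against 796 CPM in mouse B. Cdc6 fell, from 30.6 to 18.3 CPM in mouse A and from 51.6 to 16.7 CPM in mouse B. Its log2 fold change was -1.07 (SE 0.28) with an adjusted p of 0.024 by edgeR with the mouse as a block, where 73 of 13864 genes were called (0.527%), 47 of them lower (0.339%). It was the one member called. The classes held 44 and 78 of its UMIs in mouse A, and 70 and 68 in mouse B. Its call was lost without the filter on low counts, with classes drawn after thinning, with the spots split at their median and without the block (adjusted p in edgeR over all alternatives with a test 0.027 to 0.983), and DESeq2 gave it no adjusted p and an unadjusted p of 0.069.

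The activators came next. Mcm10 stood at 21.7 against 32.9 CPM and 18.8 against 44 CPM (log2 fold change -0.79, adjusted p 0.245 in edgeR), and Cdc45 at 25.4 against 49.4 CPM and 27.4 against 47.8 CPM (-0.75, adjusted p 0.185 in edgeR). The ring subunits lay between -0.31 (Mcm7) and -0.52 (Mcm3), beside a median of -0.12 over all genes. Cdt1, the partner of Cdc6 in loading the ring, stood at 82.5 against 121 CPM in mouse A and 99.3 against 88.7 CPM in mouse B (-0.07, adjusted p 0.949 in edgeR), and its sign changed under 4 of the alternatives. The other 9 members were lower in both mice with no overlap of the classes, as were 20.2% of all genes. The 1 gene of the wider list that was called was Ccne2, a cyclin E that acts at the entry to S phase, at 20.8 against 32.5 CPM and 44.5 against 182 CPM (-1.32, SE 0.27, adjusted p 0.000688 in edgeR).

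Background moved with this comparison in mouse B, where a receptor gene had a mean of 4.35 CPM in hypoxia-high and 18.8 CPM in hypoxia-low spots, against 1.19 and 0.689 CPM in mouse A. Less that background, the log2 ratios of the sum were -0.64 and -0.26 in mice A and B, against -0.61 and -0.53 before. The log2 ratios of Cdc6 less background were -0.80 and -1.41 in mice A and B, those of Mcm10 -0.65 and -0.80, and those of Cdc45 -1.01 and -0.33. In mouse B Mcm4 (0.03) and Mcm7 (0.95) then changed sign. Median spot depth was 1900 against 651 UMIs in mouse A and, in mouse B, 2611 against 1433 UMIs. Marker lists moved too, and are given here less the background, which in hypoxia-low spots of mouse B came to 376 CPM for 20 mitotic genes. In mouse A the mitotic genes stood at 1170 against 1798 CPM, 7 T and NK cell genes at 48.8 against 103 CPM and 5 endothelial genes at 146 against 227 CPM. In mouse B the mitotic genes stood at 1190.1 against 1108 CPM and the endothelial genes at 78.3 against 78 CPM, so neither was lower there, and the T and NK cell genes did not exceed the background in hypoxia-low spots. The carcinoma markers were higher in hypoxia-high spots of both mice, at 4757 against 4031 CPM and 5557 against 2824 CPM, and neutrophil genes went opposite ways, at 3629 against 1786 CPM and 8630 against 12018 CPM. The part of depth and of these lists in the members' difference was not tested.

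Marker-high lung spots were also split at their median share of the hypoxia genes. The summed members stood at 537 against 562 CPM in mouse A and 1316 against 1348 CPM in mouse B, so the classes of each lung were close. The log2 fold changes ran from -0.28 (Cdt1) to 0.31 (Mcm7), with adjusted p of 0.826 to 0.998 in edgeR and none at an unadjusted p under 0.05, where 97 of 10768 genes (0.901%) were called and 6.92% had such a p. DESeq2 called no member. Cdc6, the member that fell in the tumours, stood at 24.8 against 16.2 CPM on 11 and 9 UMIs in mouse A and 89.3 against 82 CPM in mouse B.

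**Figure D4:**
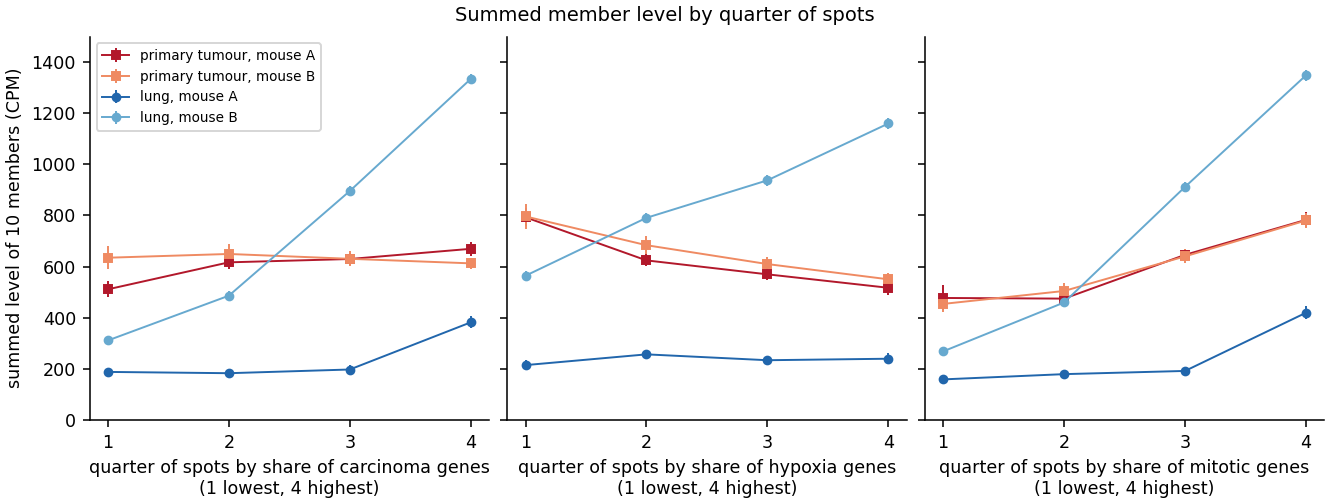
Summed level of the 10 genes, in CPM, in quartiles of spots ranked within each section by their share of UMIs on carcinoma markers, hypoxia genes or mitotic genes (quartile 1 lowest). Error bars are 95% Poisson intervals. The sum is highest in the top quartile of carcinoma markers in both lungs, climbs with them in the tumour of mouse A and not in that of mouse B, goes down with the hypoxia genes in the tumours and up with them in the lung of mouse B alone, and is higher in the top than in the bottom quartile of the mitotic genes in all 4 sections.

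Over quartiles of the carcinoma markers, the sum was 188, 183, 197 and 382 CPM in the lung of mouse A and 311, 486, 896 and 1334 CPM in the lung of mouse B. In the low lung the lower quartiles are not ranked among themselves, since 1055 of its 1697 spots are tied at a share of 0, so only the highest quartile stands apart, and the other lung climbed at each step. In the tumours it was 511, 617, 629.6 and 669.5 CPM in mouse A, where the lowest quartile was shallow (a median of 646 UMIs per spot), and 635, 649, 630.4 and 613 CPM in mouse B, or 417, 513, 556 and 579 CPM less the background of each quartile. The tumour of mouse A thus climbed at each step, and that of mouse B did so only once the background was subtracted. Over quartiles of the hypoxia genes it went from 793 through 624 and 570 to 517 CPM in the tumour of mouse A, from 796 through 684 and 610 to 550.2 CPM in the tumour of mouse B (608, 584, 545 and 507 CPM less the background), and up from 564 to 1160 CPM in the lung of mouse B. The lung of mouse A, at 215, 257, 234 and 239.6 CPM, did not climb. The sum in the tumours thus fell at each step. In mouse A the first step was the largest, and the lowest quartile there was shallow, with a median of 651 UMIs per spot against 5273 in the next.

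Licensing genes were next compared with genes of mitosis, the other end of the cycle, by ranking spots by the share of UMIs on 20 mitotic genes. In the tumours the summed members stood at 782 CPM in the highest and 477 CPM in the lowest 25% of spots of mouse A and at 780.4 against 454 CPM in mouse B. All 10 members were higher in both mice with no overlap of the classes, as were 11.3% of all genes. By edgeR with the block, 444 of 16462 genes were called (2.7%), 264 of them higher (1.6%), and 5 members rose. They were Mcm6, from 88.7 to 163 CPM and from 87.7 to 167 CPM (log2 fold change 1.03, SE 0.23, adjusted p 0.000956 in edgeR), Mcm3 (0.99), Mcm4 (0.96), Mcm5 (0.91) and Cdt1 (0.78). Mcm2, Mcm10, Cdc45 and Cdc6 had log2 fold changes of 0.70 to 0.88 with adjusted p of 0.064 to 0.097 in edgeR. Mcm7 had 0.52 with an adjusted p of 0.464 in edgeR. With classes drawn after thinning to 1000 UMIs the sums were closer, at 688 against 530 CPM in mouse A and 695 against 572 CPM in mouse B. The calls depended on the fit, with 7 members called higher under another scaling beside 3.2% of all genes, 2 after thinning beside 0.553%, 2 with spots of at least 1000 UMIs beside 0.745%, and none by DESeq2 or without the block. The lowest spots of mouse A were shallow, with a median of 465 UMIs against 2114, and a receptor gene had a mean of 2.56 against 0.53 CPM there and 12.9 against 6.16 CPM in mouse B. Neutrophil genes stood at 4535 CPM in the lowest and 2009 CPM in the highest spots of mouse A, and at 19563 and 6690 CPM in mouse B. Macrophage genes went the other way, at 860 and 1784 CPM in mouse A and 273 and 428 CPM in mouse B. The part of these lists and of depth in the members' difference was not tested.

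Of 70 genes of the wider list, 17 rose with the mitotic genes in the tumours by edgeR, beside 1.6% of all genes. None of the 70 was called lower, with 1 at an unadjusted p under 0.05 in that direction. Those with the largest log2 fold change were Atad5, which unloads the sliding clamp (1.42, SE 0.38, adjusted p 0.012 in edgeR), Gmnn, the inhibitor of Cdt1 (1.29, SE 0.29, adjusted p 0.00121 in edgeR), and Rrm1, a subunit of ribonucleotide reductase (1.25, SE 0.24, adjusted p 4.6e-05 in edgeR). Nucleotide supply had 4 of its 5 genes called, with a median log2 fold change of 1.04. Fork protection had 4 of its 8 genes called, with a median of 0.78. Of the 6 origin recognition genes none was called and 1 had an unadjusted p under 0.05, with a median of 0.20. The difference between these lists was not tested.

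In the lungs the ratios were larger, with 418 against 159 CPM in mouse A and 1348 against 268 CPM in mouse B. With classes drawn after thinning to 1000 UMIs the sums were closer, at 306 against 195 CPM and 1199 against 491 CPM. After the same thinning the tumours of mice A and B gave 688 against 530 CPM and 695 against 572 CPM. The difference between the tissues was not tested. The log2 fold changes were 1.20 (Mcm4) to 2.15 (Mcm10). No gene of 12339 passed in edgeR (0%), while 2323 (18.8%) had an unadjusted p under 0.05 and DESeq2 called 306. In edgeR the members' adjusted p was 0.108 to 0.225, and all 10 had an unadjusted p under 0.05 in the higher direction, as had 11% of all genes. DESeq2 called 7 of the members higher, beside 1.86% of all genes. Mcm10 stood at 16 against 4.32 CPM in mouse A and 65.1 against 11.3 CPM in mouse B, and Mcm7 at 12 against 3.54 CPM and 27.2 against 4.68 CPM. Neutrophil genes were at 65492 against 82667 CPM and 7041 against 70191 CPM, and the lungs' alveolar genes at 12261 against 13027 CPM and 2884 against 12056 CPM. The carcinoma markers stood at 273 against 68.8 CPM and 1948 against 284 CPM, and the macrophage genes at 538 against 346 CPM and 1114 against 473 CPM. Median depth was 5987 against 5966 UMIs in mouse A and 15803 against 6804 UMIs in mouse B, and the part of these in the difference was not tested.

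**Figure D5:**
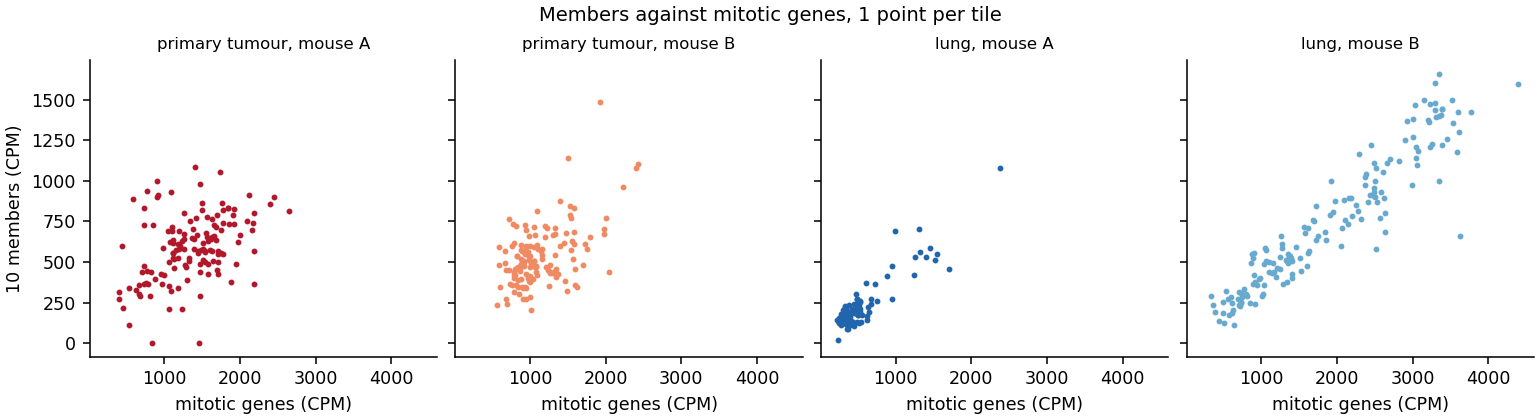
Summed level of the 10 genes against that of 20 mitotic genes, both in CPM, with 1 point per tile of 6 by 6 array steps, in 4 panels for the 4 sections. Points of both lungs lie along a line, over a range up to 1077 CPM of the members in mouse A and 1660 CPM in mouse B, and those of the tumours scatter widely.

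The levels of the members and of the mitotic genes kept a similar ratio across sections. The members' sum was 0.424 and 0.476 of the mitotic sum in the tumours and 0.419 and 0.403 of it in the lungs, although the sums themselves differed 3.78-fold. In marker-high and marker-low spots the ratio was 0.374 and 0.436 in the lung of mouse A and 0.415 and 0.383 in the lung of mouse B. Over tiles of 6 by 6 array steps, the log2 levels of both sums correlated with r = 0.83 over 97 tiles in the lung of mouse A, 0.94 over 161 tiles in the lung of mouse B, and 0.32 and 0.47 over 139 and 137 tiles in the tumours. With larger tiles of 10 by 10 steps these were 0.91 and 0.97 in the lungs and 0.61 and 0.43 in the tumours, so the value in the tumour of mouse A depended on the tile. Tiles of a section share a library, so these values are descriptions, and the members' sum correlated with tile depth at r = 0.04 and 0.53 in the lungs and 0.15 and 0.28 in the tumours. The median tile held 19 and 94 member UMIs in the lungs and 40 and 16 in the tumours. At the median, the lung of mouse A thus had fewer member UMIs per tile than the tumour of the same mouse. Tile depth reached lower in that tumour, where the shallowest tile held 2228 UMIs, against 11140 UMIs in that lung. The lowest member sum of a tile was 0 CPM in that tumour and 23.3 CPM in that lung. All tiles had the same weight in r, and the part of shallow tiles in these values was not tested. Each member was also correlated with the other 9. These r ran from 0.63 to 0.90 in the lung of mouse B, from 0.20 to 0.63 in that of mouse A, and from -0.03 to 0.31 and -0.03 to 0.27 in the tumours, beside a median r with the members' sum of 0.25, 0.03, 0.06 and 0.05 over all genes of at least 20 CPM. In the lung of mouse B, Mcm6 followed the other 9 members most closely (r = 0.90) and Mcm7 least (0.63).

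Of 6283 genes with at least 20 CPM in each section, those whose tile pattern was most like the sum of the members, by the mean r over the 4 sections, were Hist2h2bb (0.56), Hist1h3c (0.54), Hist1h3b (0.54), Set (0.53), Hist1h2bb (0.53), Lmna (0.51), Ccna2 (0.51), Hist1h2bk (0.49), Ccnd1 (0.49) and Hist1h1d (0.48). Of these 10, 6 are histone genes, whose near-identical copies a probe may not tell apart, and Ccna2 encodes cyclin A2 and is one of the mitotic genes. Their r was 0.09 to 0.29 and 0.21 to 0.40 in the tumours of mice A and B, and 0.49 to 0.78 and 0.86 to 0.92 in the lungs, so the order rests mainly on the lungs. With tiles of 10 by 10 steps, 5 of them stayed among the first 10, while Ccnd1 went to rank 166. At the other end were Mxd1 (-0.50), Ifitm1 (-0.49), and the neutrophil genes S100a8 (-0.48) and S100a9 (-0.47).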

How the data were processed

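The deposited files hold unnormalized UMI counts of each gene in each spot and the positions of spots, made by the authors with Space Ranger (2.0.0 per the file headers) on mm10, per the labels. Spots with more than 200 genes were kept, and counts were summed per section or class of spots, with the mouse as the unit. The sections hold 10890154 to 30240176 UMIs. The test was that of edgeR 4.0.16 under R 4.3.3 (TMM, filterByExpr, quasi-likelihood, Benjamini-Hochberg, threshold 0.05), with the mouse as a block within a tissue, and DESeq2 1.42.0 was an alternative. The code was tested on simulated data. Sums of 1 mouse share an animal and are paired by it. Their deviations had correlations of -0.31 and -0.31 between tissues and 0.54 to 0.84 within a tissue. With 2 mice no permutation of labels can go below p = 0.333. Tile correlations use log2(CPM + 10). Python 3.11.15 and numpy 2.4.6 did the rest.

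The members, the marker and replication lists, the classes and the rule for named genes (all members, of the replication list the 3 largest changes each way among genes called, and the 10 most alike over tiles) were chosen with earlier results of these data known. Classes are ranges of a score, not cell types. No doublet caller was run. Alternatives were another scaling, no filter, DESeq2, the block, leaving out each sum, deeper spots, thinned or wider classes, and other tiles. Subtraction of the receptor-gene background within classes and a crossed block were alternatives added after seeing the data. The human digital spatial profiling and the tissue images were not analysed here.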

Additional observations from a re-analysis of the deposited data

Results flagged for a closer look

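For Mcm7 and Cdc6 both tumours moved one way and both sets of marker-high lung spots the other way between hypoxia-high and hypoxia-low spots. The log2 fold change of Mcm7 was -0.31 in the tumours (log2 ratios of -0.43 and -0.46 in mice A and B) and 0.31 in marker-high lung spots (0.17 and 0.37). That of Cdc6 was -1.07 in the tumours (-0.74 and -1.63) and 0.15 in marker-high lung spots (0.62 and 0.12). With thinned classes Cdc6 in marker-high lung spots was -0.15, so the fitted values of both tissues then had the same sign, and its call in the tumours was lost with no filter, thinned classes, a median split and no block. The difference between the tissues was not tested, the lung values of mouse A rest on 9 to 11 UMIs a class, and with the background subtracted the ratio of Mcm7 in the tumour of mouse B was 0.95.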

How the results depend on the processing

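Of 839 values recomputed, 629 kept their direction and side of the threshold or moved within the error. Counts of genes called were 2022 (no filter), 2644 (DESeq2), 681 (spots of at least 1000 UMIs) and 883 to 6604 without each sum for lung against tumour, 3013, 779 and 94 (no filter, DESeq2, top against bottom quartile) for marker-high against low lung spots, 836, 516, 0 (thinned classes, with 1408 at an unadjusted p under 0.05), 9 (wider classes) and 182 to 2072 without each sum for marker-high lung spots against tumour, 1, 28, 42, 1 (no filter, DESeq2, 1000 UMIs, median split) for hypoxia in the tumours, 1 and 49 (DESeq2, thinned) within marker-high lung spots, 869, 278, 74, 183, 130 and 190 (scaling, no filter, DESeq2, 1000 UMIs, thinned, median split) for mitotic genes in the tumours, and 1156, 306 and 331 (no filter, DESeq2, median split) in the lungs. Members called were 10, 5 and 1 for marker-high against low lung spots, 0 to 2 without each sum for lung against tumour, 0 to 6 for marker-high lung spots against tumour, 0 for hypoxia in the tumours under no filter (1 at an unadjusted p under 0.05), thinned classes (2) and a median split (1), 0, 2 and 2 for mitotic genes in the tumours (DESeq2 with 5 at an unadjusted p under 0.05, 1000 UMIs, thinned) and 10, 7 and 6 in the lungs. The causes were not tested.

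The mouse pairs sums as a replicate block. With the block 1817 genes were called between lung and tumour and 615 for marker-high lung spots against tumour, and with crossed pairs 2565 and 340, in each case with 0 members. Without the block, hypoxia in the tumours gave 0 genes and 0 members (243 and 3 at an unadjusted p under 0.05), hypoxia within marker-high lung spots 0 genes (4 at an unadjusted p under 0.05), and mitotic genes in the tumours 15 genes and 0 members (7 at an unadjusted p under 0.05). The block turned Mcm4 and Mcm10 between lung and tumour to -0.046 and -0.14, and leaving it out turned Cdc45 within marker-high lung spots to -0.0063.

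Log2 fold changes of lung against tumour that turned sign were Mcm2 (0.14) and Cdt1 (0.15) with no filter. Without each sum in turn they ran from -0.98 to 0.79 for Mcm2, -0.37 to 0.93 for Mcm3, -0.42 to 0.70 for Mcm4, -0.44 to 0.99 for Mcm5, -1.31 to 0.54 for Mcm6, -1.19 to 0.22 for Mcm7, -1.03 to 1.07 for Mcm10, -0.49 to 1.39 for Cdc45, -0.62 to 1.5 for Cdc6 and -0.86 to 0.76 for Cdt1, the lowest without the lung of mouse B and the highest without that of mouse A. For marker-high lung spots against tumour the same ranges were -0.25 to 1.13 for Mcm2, -0.020 to 1.01 for Mcm4, -0.48 to 0.75 for Mcm6, -0.11 to 0.42 for Mcm7, -0.62 to 1.48 for Mcm10, -0.14 to 1.80 for Cdc45, -0.061 to 2.04 for Cdc6 and -0.50 to 1.00 for Cdt1, and thinned classes turned Mcm6 (-0.045) and Mcm7 (-0.29). For hypoxia, Cdt1 turned in the tumours with no filter (0.053), 1000 UMIs (0.016), thinned classes (0.0040) and a median split (0.019), and within marker-high lung spots Cdc45 with DESeq2 (-0.068), and Mcm6 (0.071) and Cdc6 (-0.15) with thinned classes. Depth limits Mcm7, Mcm10 and Cdc6 most, which have the fewest UMIs.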
